A study of Mus musculus with 12 samples.

Results

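The TNF ligand and receptor superfamily was followed in PUER cells as every row of the normalized array table whose listed gene name starts with Tnfrsf or Tnfsf. There were 35 such rows among 27676 gene names. Of these, 22 were receptors and 12 were ligands. The remaining row, Tnfsf5ip1, carries the stem in its old name only: its current symbol is Psmg2, a proteasome assembly chaperone that is no ligand, and it was counted apart. The current symbol also differed for Tnfrsf7 (Cd27), Tnfrsf19l (Relt) and Tnfsf7 (Cd70).

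PUER is a mouse myeloid progenitor line derived from PU.1-deficient cells. Its PU.1, the master transcription factor of macrophages, is joined to the ligand-binding domain of the estrogen receptor, so that 4-hydroxytamoxifen (4-OHT) switches the fusion protein on and the cells take on macrophage features. Cells infected with the retroviral vector MIGR1, which gives GFP, or with MIGR1 carrying β-catenin-S33Y, a form of the Wnt pathway's transcriptional co-activator that escapes degradation, were sorted for GFP and used with or without 4-OHT. The study asked how active β-catenin bears on gene expression while PU.1 drives these progenitors towards macrophages. The 4 groups of 3 arrays were β-catenin-S33Y cells with 10 nM 4-OHT for 24 h, β-catenin-S33Y cells at 0 h, MIGR1 cells (called control cells below) with 10 nM 4-OHT for 24 h, and control cells at 0 h. All 4 groups carry the PU.1 fusion, a retrovirus and GFP, and all come from 1 cell line. No group held cells cultured 24 h in the absence of 4-OHT, or fusion-free cells given it, so time and agent cannot be told apart. The labels give replicates the letters A, B and C and do not say whether these were separate cultures. The p-values therefore reflect how far these samples scatter, and that scatter may be technical only.

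Superfamily ligands are mostly trimers, membrane-bound or shed, and their receptors fall into 3 broad kinds. Receptors with a death domain (Tnfrsf1a, Tnfrsf21, Tnfrsf25) can recruit adaptors such as TRADD or FADD. Receptors without one bind TRAF proteins and feed the classical and alternative NF-κB routes, and decoy receptors bind ligand without passing on a signal. In myeloid cells the family is known for TNF itself, for the B cell survival factors BAFF (Tnfsf13b) and APRIL (Tnfsf13), and for LIGHT (Tnfsf14), a ligand of the receptors HVEM (Tnfrsf14) and lymphotoxin-β receptor (Ltbr).

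The 250 bases before the most upstream annotated start are shown for the 3 ligands whose 4-OHT response differed between the vectors. Those of Tnfrsf9, the receptor with the largest such difference, are shown too. Short cores bound by TCF/LEF, PU.1-type ETS and AP-1 factors can so be seen in place. AP-1 itself was not manipulated in these groups, and other starts were not searched. The windows are RefSeq sequences of mouse build GRCm38.p6, 5′ to 3′ on the gene's strand. Capitals mark the TCF/LEF core CTTTGA (the factors through which β-catenin acts), the PU.1-type ETS core GAGGAA and the AP-1 core TGANTCA. Each was searched on both strands, so that TCAAAG is CTTTGA read on the other strand. No matches overlapped in these windows.
Tnfsf13b, chr8:10006217-10006466, plus strand: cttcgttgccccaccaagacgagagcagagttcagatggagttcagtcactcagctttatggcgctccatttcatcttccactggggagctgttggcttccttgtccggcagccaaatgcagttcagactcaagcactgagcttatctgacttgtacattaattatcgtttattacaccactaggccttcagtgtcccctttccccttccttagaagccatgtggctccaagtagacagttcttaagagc
Tnfsf13, chr11:69685555-69685804, minus strand: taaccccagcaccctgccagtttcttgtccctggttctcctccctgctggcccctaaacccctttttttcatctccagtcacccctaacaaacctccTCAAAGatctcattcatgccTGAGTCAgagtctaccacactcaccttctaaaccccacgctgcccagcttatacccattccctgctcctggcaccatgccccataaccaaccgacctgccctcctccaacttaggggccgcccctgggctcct
Tnfsf14, chr17:57194182-57194431, minus strand: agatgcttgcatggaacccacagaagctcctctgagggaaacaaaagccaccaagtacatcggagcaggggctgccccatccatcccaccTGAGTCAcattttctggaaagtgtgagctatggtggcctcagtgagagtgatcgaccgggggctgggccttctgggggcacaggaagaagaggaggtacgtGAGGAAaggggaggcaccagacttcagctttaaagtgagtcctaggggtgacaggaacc
Tnfrsf9, chr4:150919905-150920154, plus strand: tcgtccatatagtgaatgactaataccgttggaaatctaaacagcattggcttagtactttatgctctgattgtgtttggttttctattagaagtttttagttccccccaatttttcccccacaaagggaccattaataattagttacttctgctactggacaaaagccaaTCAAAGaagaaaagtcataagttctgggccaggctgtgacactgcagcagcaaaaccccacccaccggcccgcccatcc

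The Tnfsf13b window held none of these letters. That of Tnfsf13 held a TCF/LEF core 148 to 153 bases and an AP-1 core 127 to 133 bases before the start, that of Tnfsf14 an AP-1 core 154 to 160 bases and a PU.1-type ETS core 54 to 59 bases before it, and that of Tnfrsf9 a TCF/LEF core 74 to 79 bases before it. Promoter windows were at hand for 26 of the 34 receptors and ligands. The PU.1-type core stood in 7 of these 26, against 23.1% of 27025 mouse windows of the same length; the TCF/LEF core in 4, against 14.1%; the AP-1 core in 3, against 6.85%; and an NF-κB core in 1, that of Tnfrsf25, against 1.41%. These matches describe the letters in the windows and nothing about binding.

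The median scanned intensity per array ran from 133.5 to 208. A background bound was set for each array at the mode of its normalized log2 values plus 3 SD of the values below the mode, which lay between 7.28 and 7.56 and left 47.2% to 50.6% of genes above it. The macrophage markers rose with 4-OHT with either vector, 7 of 7 in each by limma. Csf1r, however, was below background on every β-catenin-S33Y array (mean of 7.35 at 24 h and 6.62 at 0 h). The log2 levels of the 7 markers summed to 76.1 to 76.3 in β-catenin-S33Y cells at 24 h, against 58.8 to 59.0 at 0 h, and to 83.1 to 83.5 in control cells at 24 h, against 61.0 to 62.9 at 0 h. Eosinophil markers were higher in β-catenin-S33Y cells, 4 of 4 at each time. They summed to 49.4 to 50.4 in β-catenin-S33Y cells against 29.8 to 33.5 in control cells at 24 h, and to 51.4 to 52.0 against 26.5 to 29.5 at 0 h. Of the mast cell markers, 2 of 4 were higher in β-catenin-S33Y cells at each time. Among lymphocyte markers, 4 of 5 B cell and 3 of 6 T cell genes were below background on all 12 arrays. The part of these marker shifts in the results was not tested. In such bulk RNA, fewer cells of a type and less RNA per cell cannot be told apart.

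Of the 34 receptors and ligands, 18 were above background on all 3 arrays of at least 1 group: 14 of 22 receptors and 4 of 12 ligands. The 4 ligands were Tnfsf12, Tnfsf13, Tnfsf13b and Tnfsf14. Of the 18, 12 were above background on all 12 arrays. The other 16 comprised 8 receptors (Tnfrsf7, Tnfrsf8, Tnfrsf10b, Tnfrsf11a, Tnfrsf11b, Tnfrsf13c, Tnfrsf17 and Tnfrsf19) and 8 ligands (Tnfsf4, Tnfsf7, Tnfsf8, Tnfsf9, Tnfsf10, Tnfsf11, Tnfsf15 and Tnfsf18). For 15 of these no array was above background, at normalized log2 values of 5.74 to 7.28. Tnfsf4, the ligand of the co-stimulatory receptor OX40 (Tnfrsf4), was above it on 2 arrays only, A of β-catenin-S33Y cells at 0 h (7.84) and A of control cells at 0 h (7.81), and lay between 6.03 and 6.64 on the other 10. Several known partners of expressed members were therefore not measured above background. Among them were the BAFF receptor Tnfrsf13c and the BAFF and APRIL receptor BCMA (Tnfrsf17), 4-1BB ligand (Tnfsf9), and TL1A (Tnfsf15), the ligand of DR3 (Tnfrsf25). Tnfsf5ip1 (Psmg2), counted apart, lay between 12.81 and 13.28 on all arrays and was called in no comparison. No member reached the scanner's ceiling.

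Tests used limma over 22461 genes, those whose value was at or above an array's own 30th percentile in 3 or more arrays. A gene was called where its Benjamini-Hochberg adjusted p was below 0.05. Of the 34 receptors and ligands, 30 entered. The 4 that did not were the ligands Tnfsf8, Tnfsf10, Tnfsf11 and Tnfsf18. None of the 12 dim members that entered was called in any comparison by limma; the smallest adjusted p among them was 0.0576, for Tnfsf15 between the vectors at 0 h. Each comparison shares a group with others, so that the 3 control arrays at 0 h enter the control response, the vector difference at 0 h and the test of unequal responses.

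In control cells, 24 h of 4-OHT changed 14 of the 30 tested members, 9 higher and 5 lower. Over all genes tested, 22.7% were called, 11.9% higher and 10.8% lower. All 14 were among the 18 members above background. Of the 13722 genes above background in the same sense, 34.0% were called. By class, 11 of 22 tested receptors and 3 of 8 tested ligands were called. The median change over all 34 members was 0.08 on the log2 scale, against -0.01 over all genes tested. Groups that do not overlap were common: over all genes tested this was so for 35.5% in the control response.

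Among the ligands, the 3 best-known myeloid products moved in different directions. Tnfsf13b (BAFF) had normalized log2 values of 7.91, 8.29 and 8.18 in control cells at 24 h, against 11.51, 11.80 and 11.41 at 0 h. It fell by 3.45 ± 0.17 (SE) on the log2 scale, so that control cells at 0 h were 10.9-fold brighter (limma, adjusted p = 3.1e-08), yet its values at 24 h all remained above background. Tnfsf13 (APRIL), which shares receptors with BAFF, went the other way: 15.26, 15.16 and 15.06 in control cells at 24 h, against 13.77, 13.71 and 13.68 at 0 h, a rise of 1.44 ± 0.11 (SE) or 2.71-fold (adjusted p = 9.9e-07). Tnfsf14 (LIGHT), which can co-stimulate T cells, rose less: 13.84, 13.63 and 13.70 in control cells at 24 h against 13.02, 13.09 and 13.04 at 0 h, or 0.67 ± 0.10 (SE) on the log2 scale (adjusted p = 0.000251). None of these groups overlapped. Tnfsf12 (TWEAK), ligand of the receptor Fn14 (Tnfrsf12a), was not called: 8.62, 8.36 and 8.26 in control cells at 24 h against 8.10, 8.09 and 8.22 at 0 h (adjusted p = 0.118).

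**Figure D1:**
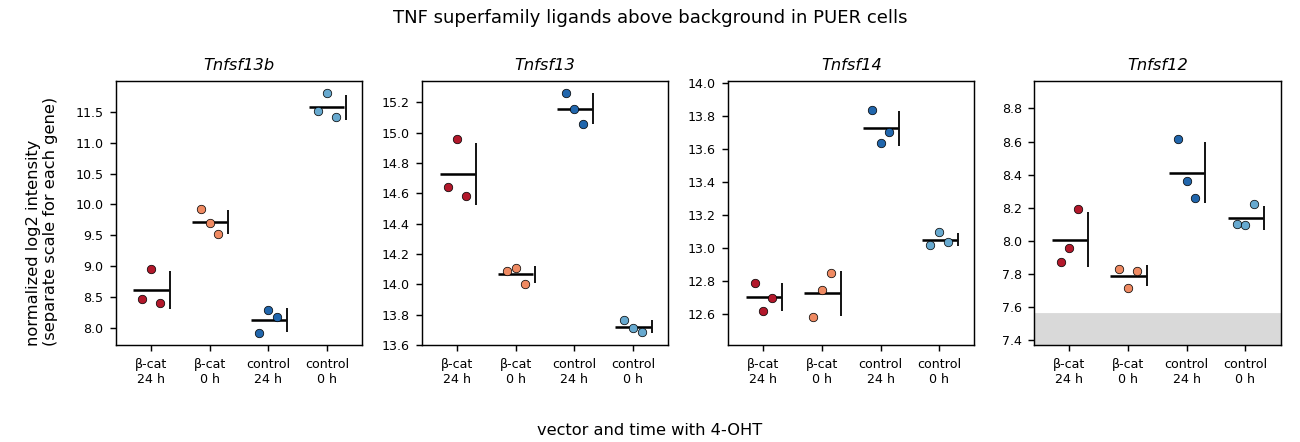
Normalized log2 intensity (y axis, a separate scale for each gene) of the 4 ligands above background, in 3 arrays per group (points A, B and C from left to right), with the group mean (horizontal line) and SD (vertical line); the grey band is the range of the arrays' background bounds. Tnfsf13b in control cells lies at 7.91 to 8.29 at 24 h and at 11.41 to 11.80 at 0 h, with β-catenin-S33Y cells between them at each time.

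Death-domain receptors showed no common direction in the control response. Tnfrsf25 (DR3), best known from T cells, was above background in 1 group only: 7.74, 8.29 and 8.15 in control cells at 24 h, against 7.09, 6.84 and 6.61 at 0 h. Its rise was at least 1.55-fold, taking the background bound for the 0 h arrays (log2 change 1.22 ± 0.16 SE, limma adjusted p = 0.000115). Of the T cell markers, 1 of 6, the kinase gene Lck, was lower in this comparison and none was higher. Tnfrsf21 (DR6) fell by 0.62 ± 0.15 (SE), with values of 12.35, 12.20 and 12.51 in control cells at 24 h and 12.61, 13.12 and 13.19 at 0 h (adjusted p = 0.0111). Without array C of control cells at 0 h its adjusted p was 0.0509. Tnfrsf1a (TNFR1), the widely expressed main receptor of TNF, was bright on every array, at 13.60 to 14.24, and was called in no comparison; its control response was 0.06 with a 95% interval of -0.23 to 0.36.

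Of the receptors that bind TRAF proteins, Tnfrsf9 and Tnfrsf1b fell in the control response. Tnfrsf9 (4-1BB, an inducible co-stimulatory receptor) was above background in control cells at 0 h alone: 6.65, 6.63 and 6.10 in control cells at 24 h, against 8.25, 8.67 and 8.48 at 0 h. It fell at least 2.17-fold (log2 change -2.01 ± 0.20 SE, limma adjusted p = 1.0e-05). Tnfrsf1b (TNFR2, the second TNF receptor, which lacks a death domain) fell 2.13-fold, with 13.56, 13.22 and 13.32 in control cells at 24 h and 14.50, 14.46 and 14.42 at 0 h (adjusted p = 1.1e-05). The groups of Tnfrsf9 and of Tnfrsf1b did not overlap.

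Several others of this class rose. Tnfrsf19l (Relt) had 10.75, 10.94 and 10.76 in control cells at 24 h against 9.64, 9.62 and 9.54 at 0 h, a rise of 2.32-fold (limma, adjusted p = 2.2e-06). Tnfrsf13b (TACI), the receptor for BAFF and APRIL that was above background here, had 8.68, 8.38 and 8.87 in control cells at 24 h against 7.34, 7.40 and 7.59 at 0 h, where 2 of 3 arrays were above background; it rose 2.30-fold (adjusted p = 3.0e-05). Tnfrsf14 (HVEM), the receptor of LIGHT, had 8.89, 8.56 and 8.84 in control cells at 24 h against 7.44, 7.93 and 7.76 at 0 h, again with 2 of 3 arrays above background at 0 h, and rose 2.08-fold (adjusted p = 0.000158). In these 3 genes every array at 24 h lay above every array at 0 h. Tnfrsf12a (Fn14), receptor of TWEAK, rose 1.53-fold, at 11.74, 12.09 and 11.96 in control cells at 24 h and 11.28, 11.42 and 11.24 at 0 h (adjusted p = 0.00565). The neighbouring co-stimulatory receptor genes Tnfrsf4 (OX40) and Tnfrsf18 (GITR) were not called in this comparison. Tnfrsf4 lay at 9.56 to 9.66 in control cells at 24 h and 9.69 to 9.93 at 0 h (adjusted p = 0.237), and Tnfrsf18 at 7.81 to 7.89 and 8.17 to 8.39 (adjusted p = 0.0715, or 0.028 without array A of β-catenin-S33Y cells at 0 h).

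The receptor genes Tnfrsf26, Tnfrsf22 and Tnfrsf23, which lie side by side on mouse chromosome 7, did not share a direction. Tnfrsf22 and Tnfrsf23 are known in mouse as decoy receptors for TRAIL (Tnfsf10, itself below background here). Tnfrsf22 rose 1.80-fold, with 9.57, 9.50 and 9.64 in control cells at 24 h against 8.62, 8.83 and 8.71 at 0 h (limma, adjusted p = 1.8e-05). Tnfrsf26 fell 1.34-fold, with 11.15, 11.42 and 11.37 in control cells at 24 h against 11.67, 11.75 and 11.80 at 0 h (adjusted p = 0.0178). That call was lost without array B or C of control cells at 0 h or array A at 24 h (adjusted p = 0.0537 to 0.0633). Tnfrsf23 was called higher (log2 change 0.90 ± 0.28 SE, adjusted p = 0.0346), but its groups overlapped: 8.30, 7.95 and 8.07 in control cells at 24 h against 8.02, 6.77 and 6.84 at 0 h, where array A stood apart. Without that array the change was 1.30; without array B or C at 0 h, or any array at 24 h, the call was lost (adjusted p = 0.0541 to 0.136). The 3 genes are related in sequence, and how far their probes can bind each other's transcripts was not tested.

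**Figure D2:**
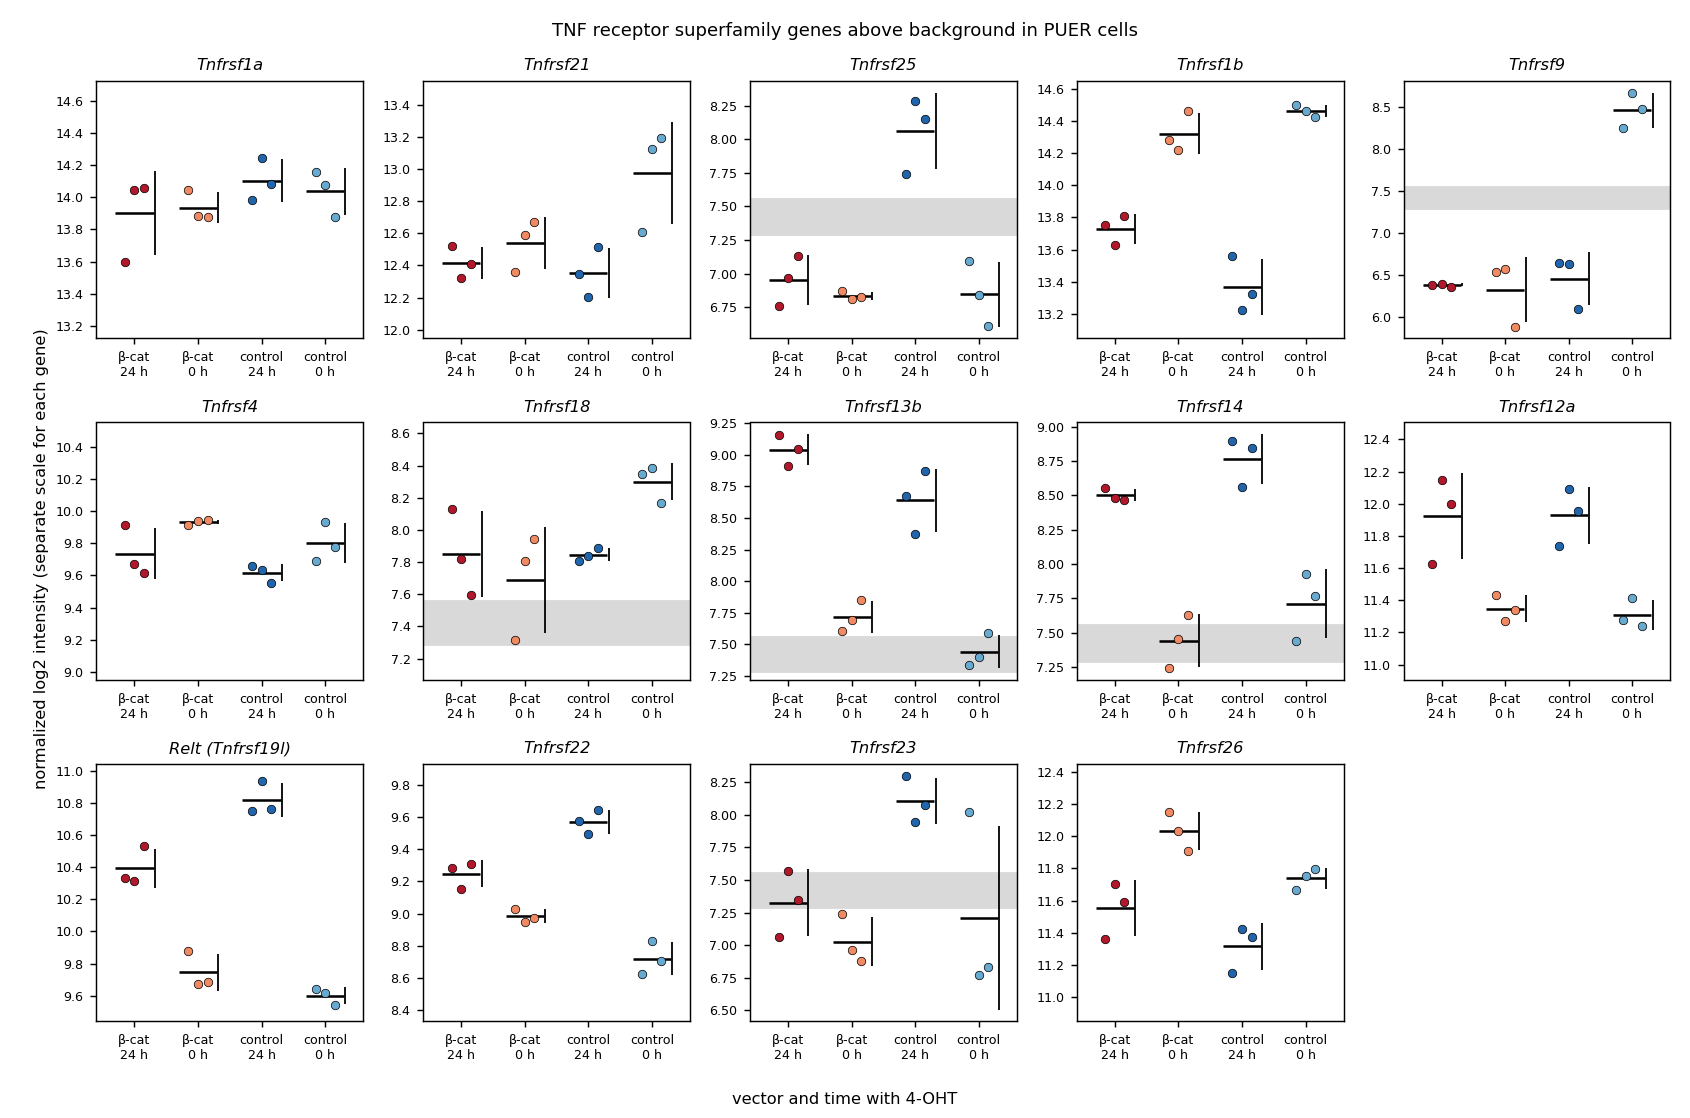
Normalized log2 intensity (y axis, a separate scale for each gene) of the 14 receptors above background, in 3 arrays per group (points A, B and C from left to right), with the group mean (horizontal line) and SD (vertical line); the grey band is the range of the arrays' background bounds. Tnfrsf9 is above the band in control cells at 0 h alone (8.25 to 8.67), and Tnfrsf25 in control cells at 24 h alone (7.74 to 8.29).

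In β-catenin-S33Y cells, 24 h of 4-OHT changed 8 of the 30 tested members, 5 higher and 3 lower, against 14.3% of all genes tested (8.02% higher and 6.32% lower). All 8 were among the 18 members above background, and of all genes above background 22.1% were called. The 8 were 6 receptors and 2 ligands. The median over all 34 members was -0.03 on the log2 scale, against 0.02 over all genes. Tnfsf13b fell here too, to 8.46, 8.96 and 8.40 at 24 h against 9.92, 9.70 and 9.52 at 0 h, a change of -1.11 ± 0.17 (SE) or 2.15-fold (limma, adjusted p = 0.000951). Tnfsf13 rose by 0.66 ± 0.11 (SE), with 14.64, 14.96 and 14.58 at 24 h against 14.09, 14.11 and 14.00 at 0 h (adjusted p = 0.00129). In neither ligand did the groups overlap. Tnfsf14 showed no called change: its values were 12.79, 12.62 and 12.70 at 24 h and 12.58, 12.74 and 12.85 at 0 h (log2 change -0.02, adjusted p = 0.918).

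TACI and HVEM rose in β-catenin-S33Y cells by amounts close to those in control cells. Tnfrsf13b had 9.16, 8.91 and 9.05 at 24 h against 7.60, 7.69 and 7.85 at 0 h, a rise of 2.50-fold (limma, adjusted p = 3.5e-05). Tnfrsf14 had 8.55, 8.48 and 8.47 at 24 h against 7.24, 7.45 and 7.63 at 0 h, where 2 of 3 arrays were above background. It rose 2.08-fold (limma, adjusted p = 0.000349). With either vector, the 0 h values of Tnfrsf13b and Tnfrsf14 lay near the background bound. How far that floor makes their rises look alike was not tested. Tnfrsf12a rose 1.49-fold, at 11.62 to 12.14 at 24 h and 11.27 to 11.43 at 0 h (adjusted p = 0.0143). Its call was lost without array B at 0 h or array B or C at 24 h (adjusted p = 0.0516 to 0.0590). Relt rose 1.57-fold, at 10.33, 10.31 and 10.53 at 24 h and 9.88, 9.67 and 9.69 at 0 h (adjusted p = 0.000858). Tnfrsf1b fell 1.51-fold, at 13.75, 13.63 and 13.81 at 24 h and 14.28, 14.22 and 14.46 at 0 h (adjusted p = 0.00265). Tnfrsf26 fell 1.39-fold, at 11.36 to 11.70 at 24 h and 11.91 to 12.15 at 0 h (adjusted p = 0.0151), a call lost without array A or B at 0 h or array A at 24 h (adjusted p = 0.0513 to 0.0646). In all 6 of these receptors the groups did not overlap, which was so for 32.7% of all genes tested.

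The response itself differed between the vectors for 7 of the 30 tested members (limma interaction, the β-catenin-S33Y response minus the control response), 2 higher and 5 lower, against 7.17% of all genes tested (3.74% higher and 3.43% lower). All 7 were among the 18 members above background, and of all genes above background 11.1% were called. The 7 were the ligands Tnfsf13b, Tnfsf13 and Tnfsf14 and the receptors Tnfrsf9, Tnfrsf25, Tnfrsf22 and Relt. In each of them the response was nearer to 0 in β-catenin-S33Y cells. How many of all genes with a called interaction share this was not counted. Over all genes tested, fewer were called in the β-catenin-S33Y response (3220) than in the control response (5096). The pattern is therefore not shown to be particular to these members. For Tnfsf13b the interaction was 2.34 ± 0.24 (SE, adjusted p = 0.000151), since the change was -1.11 with β-catenin-S33Y and -3.45 without it. Tnfrsf9 differed by 2.06 ± 0.28 (SE, adjusted p = 0.000947): it was below background in β-catenin-S33Y cells at each time (6.39, 6.40 and 6.36 at 24 h, 6.53, 6.57 and 5.89 at 0 h), so no fall could be seen there. For Tnfrsf25 the difference was -1.09 ± 0.22 (SE, adjusted p = 0.0117), with β-catenin-S33Y cells again below background on all arrays (6.76, 6.97 and 7.13 at 24 h, 6.87, 6.81 and 6.82 at 0 h).

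Smaller interactions were measured for bright genes. Tnfsf13 differed by -0.78 ± 0.15 (SE, limma adjusted p = 0.00883), Tnfsf14 by -0.69 ± 0.14 (SE, adjusted p = 0.00935) and Tnfrsf22 by -0.59 ± 0.13 (SE, adjusted p = 0.0148). Relt differed by -0.57 ± 0.14 (SE, adjusted p = 0.0305), but 10 of the 12 fits that left out 1 array, all except those without array A of control cells at 24 h or array C of β-catenin-S33Y cells at 24 h, lost this call (adjusted p = 0.0510 to 0.0777). Marker lists had called interactions too: 2 of 7 macrophage, 2 of 4 eosinophil and 1 of 4 mast cell markers were lower and none of these was higher. Of the 3 early myeloid progenitor markers tested, 2 had a higher interaction, Kit and Myb, as had 1 of 3 NK cell markers (Nkg7) and 1 of 6 T cell markers (Lck). Kit and Myb were lower in the control response and higher with β-catenin-S33Y at 24 h. Mpo was called in neither of these comparisons (log2 0.09 and 0.12). It was higher in the β-catenin-S33Y response (0.78, limma adjusted p = 0.00281) and lower with β-catenin-S33Y at 0 h (-0.58, adjusted p = 0.022). Kit was lower in the β-catenin-S33Y response as well (-0.94, adjusted p = 0.000359), while Myb was not called there (-0.36, adjusted p = 0.17). Cd34, which was not tested, was below background on every array and is counted in the sums that follow. The list of 4 progenitor markers summed to log2 levels of 49.7 to 50.9 in β-catenin-S33Y cells at 24 h, 50.2 to 51.4 at 0 h, 47.0 to 47.1 in control cells at 24 h and 49.9 to 50.6 at 0 h. The part of these markers in the results was not tested.

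For the other 7 members called in either response, no difference between the responses was called. The interaction was 0.12 for Tnfrsf13b (95% interval -0.29 to 0.53), 0.01 for Tnfrsf14 (-0.44 to 0.45), -0.04 for Tnfrsf12a (-0.46 to 0.38) and -0.05 for Tnfrsf26 (-0.41 to 0.30). It was 0.50 for Tnfrsf1b (adjusted p = 0.073), 0.50 for Tnfrsf21 (adjusted p = 0.219) and -0.60 for Tnfrsf23 (adjusted p = 0.442). These last 3 would be called when a single array was left out: Tnfrsf1b without array A of control cells at 24 h (0.59, adjusted p = 0.0208), and Tnfrsf21 and Tnfrsf23 without array A of control cells at 0 h (0.68, adjusted p = 0.0447, and -1.004, adjusted p = 0.0246). In β-catenin-S33Y cells at 24 h, Tnfrsf23 was above background on 2 of 3 arrays (7.06, 7.57 and 7.35). At 0 h it was above background on none of them (7.24, 6.96 and 6.88).

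**Figure D3:**
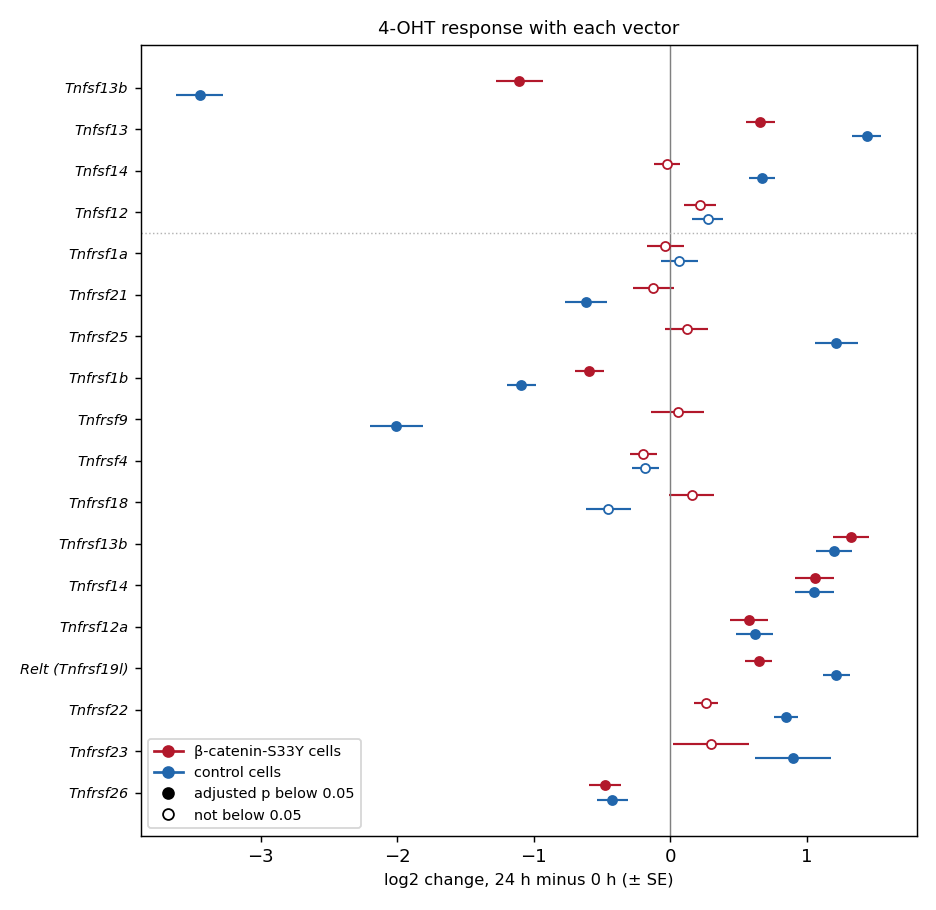
Log2 change, 24 h of 4-OHT minus 0 h (x axis, ± SE of the limma fit) for the 4 ligands (above the dotted line) and 14 receptors above background, in β-catenin-S33Y cells (red) and control cells (blue); filled points have an adjusted p below 0.05. Tnfsf13b lies at -1.11 in β-catenin-S33Y cells and -3.45 in control cells, while Tnfrsf13b, Tnfrsf14 and Tnfrsf12a lie close together with either vector.

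At 0 h, before 4-OHT, 3 of the 30 tested members differed between the vectors, all lower with β-catenin-S33Y, against 11.0% of all genes tested (4.38% higher and 6.62% lower). The share of the 30 tested members called, 10.0%, is thus close to that of all genes tested. All 3 were among the 18 members above background, and of all genes above background 16.6% were called. Tnfsf13b had 9.92, 9.70 and 9.52 in β-catenin-S33Y cells against 11.51, 11.80 and 11.41 in control cells, 3.63-fold lower (limma, adjusted p = 2.5e-05). Tnfrsf9 had 6.53, 6.57 and 5.89 in β-catenin-S33Y cells against 8.25, 8.67 and 8.48 in control cells, at least 2.13-fold lower (adjusted p = 2.4e-05). For both genes the groups did not overlap, as for 33.3% of all genes tested. Tnfrsf18 (GITR) was 1.53-fold lower, at 7.32, 7.81 and 7.95 in β-catenin-S33Y cells and 8.35, 8.39 and 8.17 in control cells (adjusted p = 0.0345). Its call was lost without any 1 of the control arrays or without array A or B of β-catenin-S33Y cells (adjusted p = 0.0531 to 0.115). Its neighbour Tnfrsf4 lay at 9.91 to 9.94 in β-catenin-S33Y cells and 9.69 to 9.93 in control cells (adjusted p = 0.482). Without array A of control cells at 24 h 5 members were called in place of 3; without array B or C of control cells or array A or B of β-catenin-S33Y cells at 0 h, 2 were. The count and its single direction depend on the setting: under some alternatives members were called higher with β-catenin-S33Y, among them Tnfsf13 (log2 difference 0.35, adjusted p = 0.0608 as reported), called under 8 alternatives.

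After 24 h of 4-OHT, 7 of the 30 tested members differed between the vectors, 1 higher and 6 lower with β-catenin-S33Y, against 18.6% of all genes tested (8.68% higher and 9.88% lower). All 7 were among the 18 members above background, and of all genes above background 28.2% were called. Of the 7, 4 were receptors and 3 were ligands. At this time 4 of 7 macrophage markers were lower and 4 of 4 eosinophil markers higher with β-catenin-S33Y, the same counts as at 0 h. Tnfrsf25 was at least 1.59-fold lower, at 6.76, 6.97 and 7.13 in β-catenin-S33Y cells against 7.74, 8.29 and 8.15 in control cells (limma, adjusted p = 0.000488). Tnfsf14 was 2.03-fold lower, at 12.79, 12.62 and 12.70 in β-catenin-S33Y cells against 13.84, 13.63 and 13.70 in control cells (adjusted p = 2.1e-05). Their groups did not overlap, as for 31.8% of all genes tested, and these 2 calls were made in every fit that left out 1 array.

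The other 5 differences at 24 h were under 1.5-fold and each was lost without at least 1 array. Tnfsf13 was 1.35-fold lower with β-catenin-S33Y (14.64, 14.96 and 14.58 against 15.26, 15.16 and 15.06 in control cells, limma adjusted p = 0.0151), a call lost without array A or C of β-catenin-S33Y cells (adjusted p = 0.0548 to 0.0622). Tnfsf12, the neighbour of Tnfsf13 on chromosome 11, was 1.32-fold lower (7.87, 7.95 and 8.19 against 8.62, 8.36 and 8.26 in control cells, adjusted p = 0.0282), a call lost without array A or B of either group (adjusted p = 0.0572 to 0.0989). Relt was 1.34-fold lower (adjusted p = 0.0109), lost without array B of control cells (adjusted p = 0.0510). Tnfrsf22 was 1.25-fold lower (adjusted p = 0.0248), lost without array C of control cells or array B of β-catenin-S33Y cells (adjusted p = 0.0789 to 0.0948). Tnfrsf1b was the 1 member that was higher, 1.28-fold (13.75, 13.63 and 13.81 in β-catenin-S33Y cells against 13.56, 13.22 and 13.32 in control cells, adjusted p = 0.0364). Its call was lost without array B or C of control cells at either time or array A or C of β-catenin-S33Y cells at 24 h (adjusted p = 0.0505 to 0.137). Without array B of control cells or array A of β-catenin-S33Y cells, 4 of the 7 calls were made. Tnfsf13b was not called at 24 h, at 8.46, 8.96 and 8.40 in β-catenin-S33Y cells and 7.91, 8.29 and 8.18 in control cells (adjusted p = 0.0747); 6 alternatives called it higher with β-catenin-S33Y (adjusted p = 0.0282 to 0.249 over all 23).

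**Figure D4:**
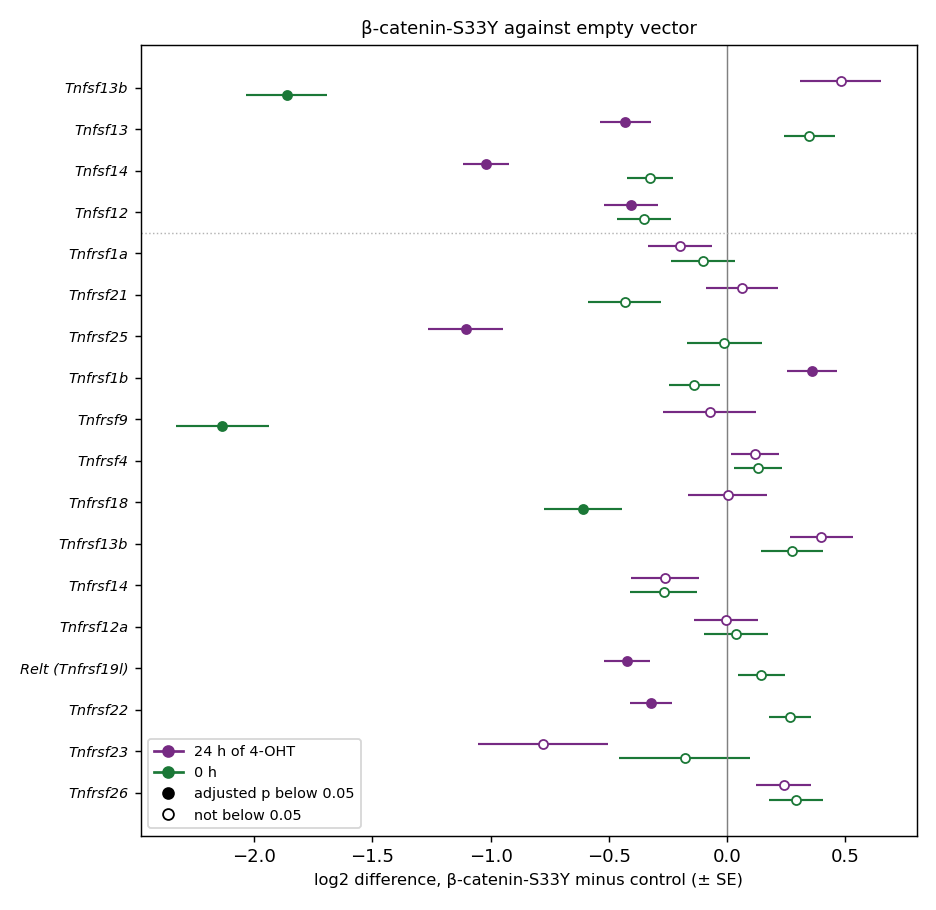
Log2 difference of β-catenin-S33Y minus control cells (x axis, ± SE of the limma fit) for the 4 ligands (above the dotted line) and 14 receptors above background, after 24 h of 4-OHT (purple) and at 0 h (green); filled points have an adjusted p below 0.05. Tnfsf13b lies at 0.48 at 24 h and -1.86 at 0 h, Tnfrsf9 at -0.07 and -2.13, and Tnfsf14 at -1.02 and -0.33.

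Superfamily genes whose names lack the stem were listed as well: 15 genes, of which 3 are members under an older name and 10 of the other 12 entered the test. In the control response 4 of these 10 rose and none fell, against 22.7% of all genes tested. Tnf, the founding ligand, had 11.89, 12.06 and 11.98 in control cells at 24 h against 9.29, 9.28 and 9.46 at 0 h, a rise of 6.21-fold (limma, adjusted p = 1.1e-09). Ltb (lymphotoxin-β, a ligand of Ltbr) had 10.67, 10.34 and 10.52 in control cells at 24 h against 7.77, 7.84 and 7.55 at 0 h, a rise of 6.91-fold (adjusted p = 6.5e-09). Fas, a death receptor, rose 1.36-fold (adjusted p = 0.0243); the fourth, Eda2r, was above background on 1 array of these groups. In β-catenin-S33Y cells 3 rose and none fell (14.3% of all genes): Tnf rose 3.85-fold, Ltb 2.81-fold and Eda2r 1.35-fold. At 24 h, Tnf was 2.57-fold and Ltb 2.94-fold lower in β-catenin-S33Y cells than in control cells, among 3 lower and 1 higher (18.6% of all genes), and the interaction was negative for the same 2 (-0.69 and -1.30, adjusted p = 0.00583 and 0.000604, against 7.17% of all genes). At 0 h, where 11.0% of all genes were called, Tnf was 1.59-fold lower (adjusted p = 0.000413) and Eda2r at least 1.06-fold higher (adjusted p = 0.0038). Ltbr, the receptor shared by LIGHT and lymphotoxin, was called in no comparison; its values lay between 13.51 and 14.30 on all arrays.

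Of 36 adaptors and enzymes that act below the receptors, 35 were matched and tested. In the control response 8 rose and 5 fell, against 22.7% of all genes tested. Those with the largest changes were Traf5, a TRAF adaptor (at least 2.22-fold higher, limma adjusted p = 1.1e-06), Map3k14, the kinase NIK of the alternative NF-κB route (3.38-fold higher, adjusted p = 1.4e-06), Bid, which links death receptors to mitochondria (1.69-fold higher, adjusted p = 6.9e-05), and Cflar, the caspase-8 inhibitor cFLIP (1.54-fold lower, adjusted p = 0.000267). With β-catenin-S33Y, 4 rose and 2 fell, against 14.3% of all genes. Map3k14 had 9.71, 9.93 and 10.04 in β-catenin-S33Y cells at 24 h against 9.23, 9.07 and 9.12 at 0 h, and 10.71, 11.17 and 11.19 in control cells at 24 h against 9.35, 9.28 and 9.18 at 0 h. Its rise was thus 1.68-fold with β-catenin-S33Y, and its interaction (-1.004, adjusted p = 0.00811), like that of Traf5 (-1.08, adjusted p = 0.00661), was among 1 higher and 2 lower calls, a share of the 35 near the 7.17% of all genes. Between the vectors, 4 were higher and 8 lower with β-catenin-S33Y at 24 h, against 18.6% of all genes. At 0 h, 1 was higher and 3 lower, a share near the 11.0% of all genes. Tnfaip3 (A20), an inhibitor of NF-κB signalling, was lower at each time, 1.85-fold at 24 h and 1.81-fold at 0 h (adjusted p = 0.000521 and 0.000933). The 24 h means of Traf5 (7.33 with β-catenin-S33Y, 8.58 in control cells) and Map3k14 (9.89 and 11.02) lay further apart than those of Tnfaip3 (9.05 and 9.94). The median change of the 35 was 0.06 in the control response and -0.08 between the vectors at 24 h, against -0.01 and 0.03 over all genes tested.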

How the data were processed

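Total RNA of 12 PUER samples was measured as Cy3-labelled cRNA, 1 array each. The authors deposited the scanned, not normalized intensities of 41174 probes, and a table of normalized log2 values with 1 probe for each of 27676 gene names. The submitters' processing notes name limma. For its role, the normalization method and the probe positions, no statement was given in the sources used here. The deposited value table equals the normalized one (largest difference 0), and 0 value columns were left unused.

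The fit used limma 3.58.1 in R 4.3.3 on the deposited log2 values: 1 mean per group, all 12 arrays, 5 contrasts, moderated tests with Benjamini-Hochberg adjustment over 22461 genes. Folds against a group below background on all its arrays use the bound and are given as "at least". The bound was set after the data were examined. Current names came from a RefSeq table (14728 matched directly, 4294 through a synonym). Members and lists were chosen with earlier results of these data known. Every member above background is named, other genes by the largest change, at most 4 per list and comparison. In simulated control responses over 22461 genes, 50 genes were changed at each of the log2 sizes 0.5, 1, 2 and 4. Of these, 17, 40, 49 and 50 were recovered, with 16 false calls among the unchanged genes. Far fewer genes were changed there than the 5096 called in the real control response. Recovery at the real share of changed genes was not simulated. Alternatives covered normalization, filters, spread, covariates and each array left out. The number of arrays limits the precision.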

Additional observations from a re-analysis of the deposited data

Results flagged for a closer look

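The 4-OHT response of 7 members differed between the vectors by limma's interaction test, the β-catenin-S33Y response minus the control response on the log2 scale. The interaction was 2.34 for Tnfsf13b, 2.06 for Tnfrsf9, -0.78 for Tnfsf13, -0.69 for Tnfsf14, -1.09 for Tnfrsf25, -0.59 for Tnfrsf22 and -0.57 for Tnfrsf19l (Relt). The adjusted p-values lay between 0.000151 (Tnfsf13b) and 0.0305 (Relt). For Tnfrsf9 and Tnfrsf25 every β-catenin-S33Y array was below background, so their interactions rest on the level in control cells at 1 time.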

How the results depend on the processing

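Across 23 alternatives none of the 39 calls of a member in a comparison changed direction; 27 passed the threshold under every alternative run, and 12 were lost under at least 1 (66 of 890 values). The counts were 14 in the control response, 8 in the β-catenin-S33Y response, 3 between the vectors at 0 h, 7 at 24 h and 7 for the interaction, and leaving out 1 array gave 11 to 15, 6 to 9, 2 to 5, 4 to 8 and 6 to 9. Between the vectors at 0 h the count was 8 with the 50th percentile filter, with genes above background on at least 3 arrays and with array weights, 7 with array brightness as a covariate, 6 with normexp and quantile normalization or a trended, robust prior, and 5 with only those 2 groups fitted. Some of these added calls were higher with β-catenin-S33Y: Tnfsf13 under 8 alternatives, Tnfsf15 (below background) under 5, Tnfrsf22 under 4 and Tnfrsf26 under 2. At 24 h it was 3 with only those 2 groups, and up to 10 under others. The cause was not tested. Over all genes, array weights called 5060 in place of 3220 in the β-catenin-S33Y response, 4350 in place of 2469 at 0 h and 2810 in place of 1610 for the interaction; 2551 in place of 4169 were called at 24 h with only those 2 groups. Scaling to the 75th percentile moved the median of all genes in the control response to -0.12 and the share of higher calls to 38.2% in place of 52.5%, and at 24 h to 59.9% in place of 46.8%; normexp and quantile gave 49.8% in place of 39.8% at 0 h.

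Calls lost under another setting, beside those named with single arrays, were Tnfsf12 at 24 h (-0.22 with normexp and quantile, adjusted p = 0.366), Tnfrsf22 at 24 h (-0.17, adjusted p = 0.071), Tnfrsf23 in the control response (0.59, adjusted p = 0.11), Tnfrsf18 at 0 h (-0.54, adjusted p = 0.0875), Tnfsf13 at 24 h (-0.36 at the 75th percentile scaling, adjusted p = 0.0572), and Tnfrsf1b (adjusted p = 0.114) and Relt (adjusted p = 0.056) at 24 h with only those 2 groups. The letters A, B and C were not shown to pair samples: deviations of same-lettered arrays correlated at -0.17 to 0.20, with 4 of 18 pairs over 0.1. Those of arrays with different letters correlated at -0.20 to 0.22, with 8 of 36 pairs over 0.1. With the letter as a replicate block the counts were 14, 8, 3, 9 and 6, and Tnfrsf18 at 0 h (adjusted p = 0.0623) and the Relt interaction (adjusted p = 0.0569) were lost, while Tnfsf15 at 0 h and Tnfsf13b and Tnfrsf13b at 24 h were gained.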

Other observations

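Tnfrsf19, a TRAF-binding receptor below background on all 12 arrays, was called in 4 of the 5 comparisons when array A of control cells at 24 h was left out, with an interaction of -0.91 (limma, adjusted p = 0.0077). In the reported fit of all arrays it was called in none of the 5, and array weights, which keep all arrays, called it in 2, between the vectors at 24 h and for the interaction. Tnfsf4 and Tnfrsf23 stood out on array A of control cells at 0 h (7.81 and 8.02), whose median scanned intensity was 140, among the lowest 2 of the 12; Tnfsf4 was likewise high on array A of β-catenin-S33Y cells at 0 h (7.84), at a median of 143.5.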
